A study of Mus musculus with 47 samples.

Results

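The genes described here encode the mitochondrial respiratory chain, the electron carriers and ATP synthase of oxidative phosphorylation. They are the genes whose symbol begins with Nduf, Sdh, Uqcr, Cox4 to Cox8 or Atp5, together with Cyc1 and Cycs, read only from probesets that carry a single gene symbol. This choice used names and no measured values, and gave 96 of the 18193 genes measured, on 190 of 45037 probesets. Each gene was read from its brightest probeset. The genes comprised 34 subunits of complex I, 4 of complex II, 9 of complex III, 19 of complex IV and 17 of complex V, cytochrome c (Cycs), and 12 assembly factors, 8 for complex I and 4 for complex II. Ndufa4 and Ndufa4l2 were counted with complex IV, where the Ndufa4 protein resides, and Cyc1 with complex III. Cox7a2l was counted with complex IV by its symbol alone. Of the complex IV genes, 8 are isoforms known mainly from muscle, testis, lung or hypoxic cells.

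Adult male C57BL/6J mice were used, and the medial prefrontal cortex (PFC) of each was read on an Affymetrix array of its own, to follow the response to chronic intermittent ethanol (CIE) over withdrawal. CIE mice were injected with ethanol (1.6 g/kg) and pyrazole (1 mmol/kg), an inhibitor of alcohol dehydrogenase, and were kept in ethanol vapor (10 to 13 mg/l) 16 hours daily for 4 days, and 7 days of abstinence separated the 4 cycles. Control (Ctrl) mice received saline with the same pyrazole and breathed air, so that pyrazole, handling and chamber housing were shared by all mice. Harvest was at 0h, 8h, 72h or 7d of withdrawal, with 6 CIE and 6 Ctrl mice at each time except for 5 CIE mice at 8h, and each time had its own Ctrl mice. Differences are CIE minus Ctrl on the log2 scale of the deposited array values, and a gene was called where limma's false discovery rate over all probesets was at or below 0.01. Pyrazole in every mouse means that ethanol was tested here only on top of this inhibitor.

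The respiratory chain passes electrons from NADH through complex I, or from succinate through complex II, to ubiquinone, then through complex III and cytochrome c to complex IV, where oxygen is reduced. Complexes I, III and IV pump protons across the inner mitochondrial membrane, and complex V, the ATP synthase, makes ATP from the return flow. Neurons depend heavily on this route for the energy of synaptic transmission. The subunits encoded by mitochondrial DNA were not analysed here (0 of 13 had a probeset with a single symbol), so all values below are of nuclear transcripts.

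Respiratory chain transcripts were read at the bright end of the array. Of the 96 genes, 72 lay above the 90th percentile of mean signal over all genes, and the median standard error of a difference at 0h was 0.05 for these genes against 0.09 over all genes. Brightness also depends on the probe, so no gene's level was set against that of another. The single-symbol probesets of Cox7c, Ndufb4 and Ndufb1 were dim for this group, at mean log2 values of 7.66, 5.40 and 8.12. The median was 12.48 over the members and 7.65 over all genes. Arrays resembled each other closely, with mean correlations to the other arrays of 0.985 or more, except for CIE 8h mouse 15 at 0.967. At 8h, 7 of 10 neuronal markers were lower in CIE mice, with a median difference of -0.15 and a mean marker level of 12.17 to 12.57 per CIE mouse against 12.44 to 12.53 per Ctrl mouse. Markers of the neighbouring striatum were higher in CIE mice in 8 of 8 genes at 0h, with a median difference of 0.67, at 8.87 to 10.72 per CIE mouse against 8.60 to 9.20 per Ctrl mouse, and in 8 of 8 genes at 72h, with a median difference of 0.40. Oligodendrocyte markers were higher in CIE mice in 6 of 7 genes at 0h (median 0.21; 11.48 to 12.24 per CIE mouse against 11.33 to 11.99 per Ctrl mouse) and in 5 of 7 at 8h (median 0.17; 11.44 to 12.10 against 11.66 to 11.90), and lower in 7 of 7 at 72h (median -0.05). Markers of cortical layers had a median of 0.35 at 8h, with 3 of 5 genes higher. Microglial markers were lower in CIE mice in 5 of 8 genes at 8h (median -0.14), with P2ry12 called as lower. Inhibitory neuron markers were lower in 4 of 6 genes at 8h (median -0.10), with Sst called as lower. None of the neuronal, striatal, oligodendrocyte or layer markers above was called. The part of all these markers in the results below was not tested. In whole tissue, fewer cells of a type and less RNA per cell cannot be told apart.

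CIE left most respiratory chain transcripts close to their control level. At 0h, 2 of the 96 genes were called, with the assembly factor Sdhaf1 higher and the assembly factor Ndufaf4 lower in CIE mice, where 7.41% of all genes were called, 4.01% as higher and 3.41% as lower. At 8h, 3 genes were called and all fell, namely Cycs, the complex I subunit Ndufs5 and the complex III subunit Uqcrfs1, where 3.53% of all genes were called, 1.26% as lower. No member was called at 72h (0 of 96, with 0.440% of all genes called) or at 7d (0 of 96, with 0.737% called). At an unadjusted p of 0.05 or less there were 23, 32, 7 and 5 members at 0h, 8h, 72h and 7d, shares of 24.0%, 33.3%, 7.29% and 5.21%, beside 28.5%, 27.4%, 13.1% and 16.6% of all genes. The share of members that were called was thus below that of all genes at 0h and near it at 8h. Of the 72 members above the 90th percentile of signal, 0, 3, 0 and 0 were called at 0h, 8h, 72h and 7d. Other genes of that brightness were called in 3.78%, 4.29%, 0% and 0.114%, so bright genes in general had fewer calls at 0h, 72h and 7d.

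The direction of the small differences was shared widely among the members. CIE values averaged below Ctrl for 70 of 96 members (72.9%) at 0h and for 71 (74.0%) at 8h, beside 47.3% and 46.3% of all genes. At 72h only 18 members (18.8%) were lower and 78 were higher in CIE mice, and at 7d 46 (47.9%) were lower, beside 51.6% and 52.8% of all genes. The median differences were -0.03, -0.07, 0.04 and 0.00 at 0h, 8h, 72h and 7d. With array weights 56 members were lower at 0h (median -0.016) and 73 at 8h (median -0.054). Leaving out 1 mouse at a time put the 0h median between -0.047 and -0.015. Among the 72 brightest members 53 were lower at 0h, 57 at 8h and 9 at 72h, beside 46.9%, 56.5% and 55.4% of the 1748 other genes of that brightness. The members share arrays and are no replicates of each other, so these counts carry no test. For 80, 74, 86 and 88 of the 96 members the 95% interval of the log2 difference lay within 0.32 of 0 at 0h, 8h, 72h and 7d. These shares of 83.3%, 77.1%, 89.6% and 91.7% stand beside 54.3%, 52.0%, 64.9% and 62.2% of all genes. The smaller standard errors of the members also narrow their intervals.

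**Figure D1:**
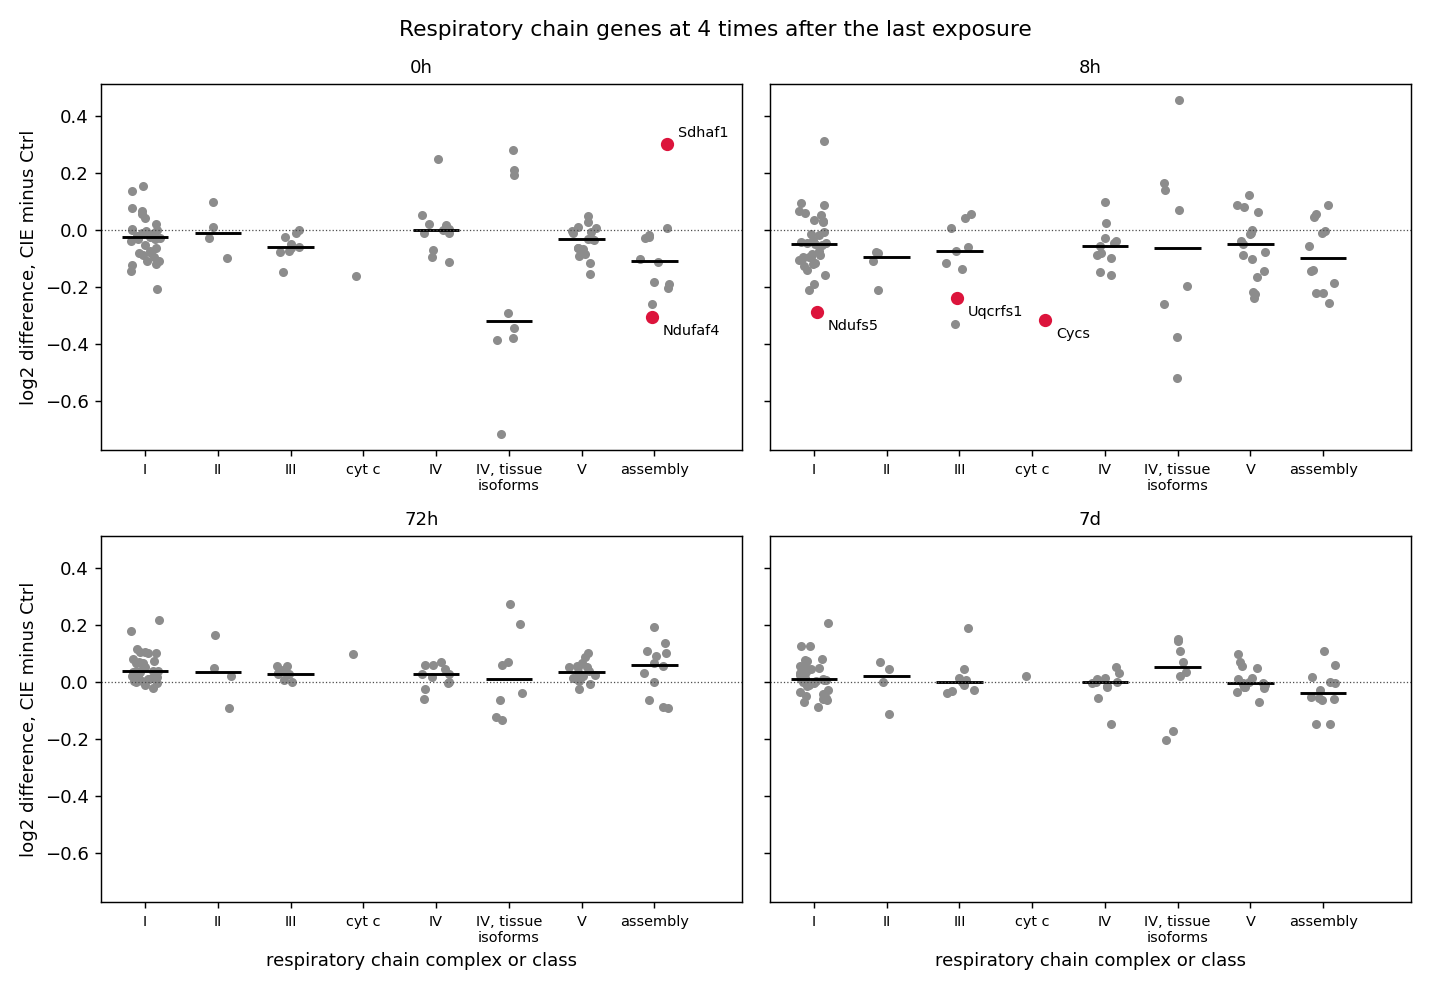
Each point is 1 gene, placed by the log2 difference of CIE minus Ctrl (vertical axis) and by complex or class (horizontal axis) at each of 4 times. Black bars are class medians and red points are called genes. The members lie mostly below 0 at 0h and 8h and mostly above 0 at 72h, and the tissue isoforms of complex IV spread most.

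Read mouse by mouse, the shared direction did not separate the groups. The median over the 96 genes of a mouse's deviation from the Ctrl mean of its time ran between -0.13 and 0.02 in CIE 0h mice and between -0.08 and 0.13 in Ctrl 0h mice. In CIE 8h mice it was -0.15 in mouse 15, -0.10 in mouse 23, 0.02 in mouse 40, -0.05 in mouse 51 and -0.06 in mouse 69, and it ran between -0.06 and 0.05 in Ctrl 8h mice. The lowest value belonged to mouse 15, whose array stood apart, and mouse 40 lay among the control mice. At 72h the range was -0.02 to 0.10 in CIE mice and -0.11 to 0.10 in Ctrl mice, and at 7d it was -0.03 to 0.04 in CIE mice and -0.04 to 0.08 in Ctrl mice. The number of members below the Ctrl mean was 39 to 74 per CIE 8h mouse and 21 to 76 per Ctrl 8h mouse, which overlapped. By the median deviation, CIE mice 15 and 23 lay below all 6 Ctrl 8h mice. Without mouse 15, 66 members were lower at 8h, with a median difference of -0.04.

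**Figure D2:**
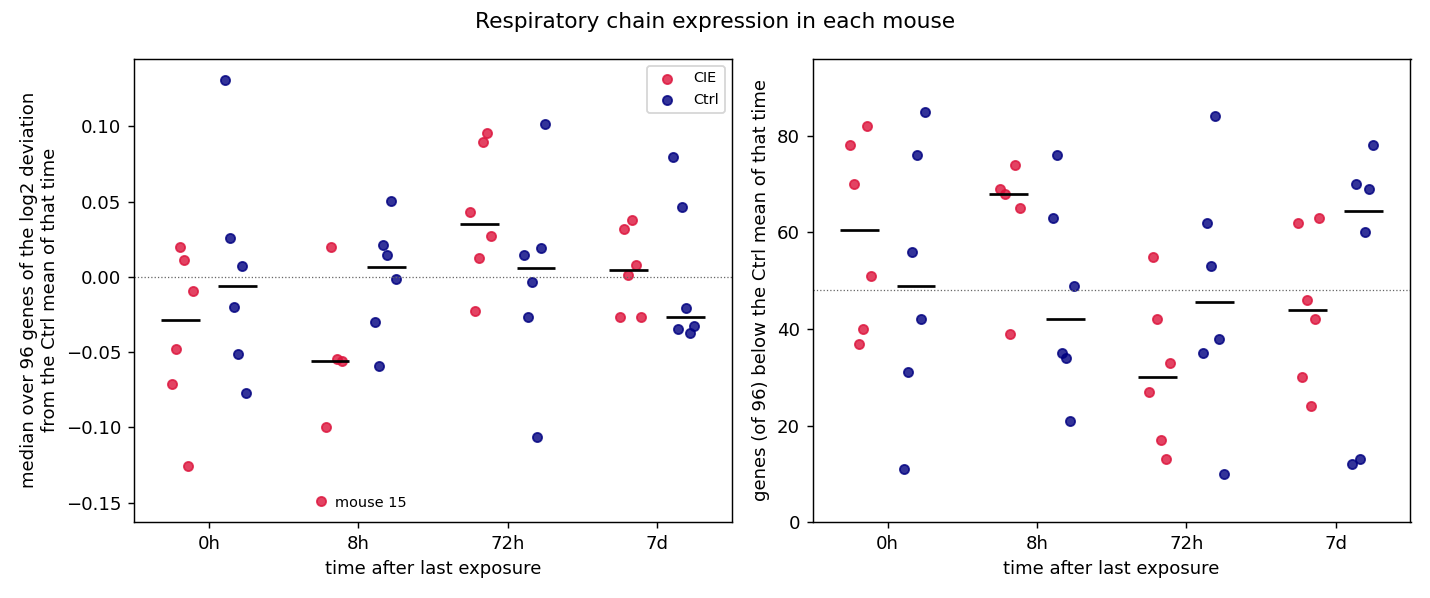
Each point is 1 mouse, CIE in red and Ctrl in blue, with bars at the group medians, by time after the last exposure. The left panel plots the median log2 deviation of the 96 genes from the Ctrl mean of that time and the right panel the number of genes below that mean. CIE and Ctrl mice overlap at each of the 4 times, and CIE 8h mouse 15 has the lowest median deviation.

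Complex I, the NADH dehydrogenase, had medians of -0.03, -0.05, 0.04 and 0.01 over its 34 subunits at 0h, 8h, 72h and 7d. Without CIE 8h mouse 15 the 8h median was -0.03. At 0h 25 subunits were lower in CIE mice, at 8h again 25, at 72h 3 and at 7d 12. All 6 core subunits measured were lower at 0h, with a median difference of -0.07, and none was called. The complex I subunit Ndufs5, an accessory protein of the intermembrane space side, fell at 8h. Its log2 values in CIE 8h mice were 11.98 in mouse 15, 12.33 in mouse 23, 12.48 in mouse 40, 12.36 in mouse 51 and 12.39 in mouse 69, against a lowest value of 12.46, a median of 12.60 and a highest of 12.79 in Ctrl 8h mice. Only mouse 40 reached into the control range, and mouse 15 lay far below the other CIE mice. The difference was -0.29 ± 0.07 (SE; adjusted p = 0.00746 from limma; two-sided exact permutation p = 0.013). It was -0.29 in repeat group 1 and -0.34 in repeat group 2, the sets of arrays that the labels name (mice 15 and 23 of the CIE 8h group and Ctrl mice 32, 42 and 50 are in repeat group 2). In repeat group 1 alone Ndufs5 was not called (adjusted p = 0.0242 from limma), and Uqcrfs1 was the only one of the 3 genes still called at 8h. Without CIE 8h mouse 15 it was -0.21 with an adjusted p of 0.0562 from limma, and without CIE mouse 23 or Ctrl mouse 50, 66, 75 or 79 the adjusted p lay between 0.0101 and 0.0295.

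Ndufa7, an accessory subunit of complex I, passed limma's F test over the 4 times together (adjusted p = 0.00115) without being called at a single time. At 7d its values were 12.60 at the lowest, 12.60 at the median and 12.64 at the highest in CIE mice, against 12.35, 12.41 and 12.45 in Ctrl mice. All 6 CIE mice lay above all 6 Ctrl mice, with a difference of 0.21 ± 0.05 (SE; adjusted p = 0.0162 from limma). Its differences at 0h and 8h were 0.14 and -0.14 (adjusted p = 0.0611 and 0.0824 from limma), and both groups overlapped there. The F test called 5 of the 96 members, the others being Sdhaf1, Uqcrfs1, Sdhc and Cycs, where 13.1% of all genes were called. Ndufb3, another accessory subunit, had 11.96, 12.04 and 12.07 at the lowest, median and highest of the CIE 7d mice, against 11.84, 11.90 and 11.95 of the Ctrl 7d mice. These groups did not overlap, yet the difference of 0.13 was not called (adjusted p = 0.112 from limma). Ndufb1, picked out after its values were seen, was among 9 complex I subunits that averaged higher in CIE mice at 8h, with a difference of 0.31 that was not called (adjusted p = 0.0328 from limma).

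Complex II, the succinate dehydrogenase that also serves the tricarboxylic acid cycle, has 4 subunits, and all 4 were lower in CIE mice at 8h, by differences between -0.21 and -0.08. The membrane anchor Sdhc had 9.77, 9.73, 9.82, 9.85 and 9.75 in CIE 8h mice 15, 23, 40, 51 and 69, against a lowest value of 9.91, a median of 9.98 and a highest of 10.09 in Ctrl 8h mice. All 5 CIE mice lay below all 6 Ctrl mice. The difference of -0.21 ± 0.06 missed the threshold at 8h (SE; adjusted p = 0.0154 from limma), while the F test over the 4 times called Sdhc (adjusted p = 0.00678). The flavoprotein Sdha, the iron-sulfur protein Sdhb and the second anchor Sdhd differed by -0.11, -0.08 and -0.08 at 8h, and none was called. At 0h the 4 subunits ranged between -0.10 and 0.10, at 72h between -0.09 and 0.17 and at 7d between -0.11 and 0.07. Groups without overlap occurred in 1, 7, 1 and 3 of the 96 members at 0h, 8h, 72h and 7d, beside 6.73%, 6.68%, 1.86% and 3.29% of all genes.

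In complex III the Rieske iron-sulfur protein Uqcrfs1, which takes electrons from ubiquinol, fell at 8h with the tightest groups of all called members at that time. Its values were 12.04, 11.99, 12.07, 12.04 and 12.00 in CIE 8h mice 15, 23, 40, 51 and 69, against a lowest of 12.21, a median of 12.27 and a highest of 12.34 in Ctrl 8h mice. All 5 CIE mice were below all 6 Ctrl mice, mouse 15 among them and not at their edge. The difference was -0.24 ± 0.05 (SE; adjusted p = 0.00167 from limma; two-sided exact permutation p = 0.00216, the smallest that 5 against 6 mice can give). It stayed called with each of the 11 mice left out in turn, at -0.25 to -0.22, and was -0.27 in repeat group 1 and -0.21 in repeat group 2. With the 8h arrays fitted alone the adjusted p from limma was 0.0367, and no member was called at 8h (0 of 96). At 0h, 72h and 7d Uqcrfs1 differed by -0.06, -0.00 and 0.02. Uqcr11, a small accessory subunit, and Cyc1, the cytochrome that hands electrons to cytochrome c, differed by -0.14 and -0.11 at 8h, and neither was called. The core protein Uqcrc1, picked out after its values were seen, was at 11.47 and 11.42 in CIE 8h mice 15 and 23 and at 12.35, 12.14 and 12.14 in mice 40, 51 and 69, against 12.19 to 12.28 in Ctrl 8h mice. Both CIE mice of repeat group 2 lay far below the other 8h mice, and the difference of -0.33 ± 0.19 was not called (SE; adjusted p = 0.244 from limma). Values this low also occurred in both arms of repeat group 1 at other times. They were 11.205 in CIE 0h mouse 17, 11.41 in Ctrl 0h mouse 20, 11.35 in CIE 72h mouse 3 and 11.35 in Ctrl 7d mouse 46. The mean correlations of these arrays with the others were 0.985, 0.988, 0.986 and 0.990, and that of CIE 8h mouse 23 was 0.988. All lay below the median of 0.992 over the arrays, and a link to Uqcrc1 was not tested. Over the 9 subunits of complex III, 8, 6, 1 and 5 were lower at 0h, 8h, 72h and 7d.

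Cycs encodes cytochrome c, the soluble carrier between complexes III and IV that also triggers apoptosis when released from mitochondria. Its values at 8h were 11.96 in mouse 15, 12.41 in mouse 23, 12.70 in mouse 40, 12.54 in mouse 51 and 12.62 in mouse 69 of the CIE group, against a lowest of 12.69, a median of 12.76 and a highest of 12.86 in the Ctrl group. Mouse 40 reached the control range and mouse 15 lay well below the other 4. The difference was -0.32 ± 0.08 (SE; adjusted p = 0.00857 from limma; two-sided exact permutation p = 0.00433). Without CIE 8h mouse 15 it was -0.20 (adjusted p = 0.0682 from limma), in repeat group 1 it was -0.17, and in repeat group 2, which holds mice 15 and 23, it was -0.55. Leaving out CIE mouse 23 or Ctrl mouse 32, 50, 66, 75 or 79 gave adjusted p-values between 0.0102 and 0.0248. On a pair of further Cycs probesets of nearly the same brightness (mean signals of 12.67 and 12.41, against 12.68 for the brightest) the 8h differences were 0.07 and 0.09 (adjusted p = 0.596 and 0.368 from limma), so the call rests on the brightest probeset. Cycs differed by -0.16 at 0h, 0.10 at 72h and 0.02 at 7d, none of them called.

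Complex IV, the cytochrome c oxidase, was read as main subunits and as tissue isoforms. The 11 main subunits had medians of -0.00, -0.06, 0.03 and -0.00 at 0h, 8h, 72h and 7d, with 9 of 11 lower at 8h, and none was called. Cox4i1, Cox6a1, Cox6b1, Cox7a2 and Cox8a, the ubiquitous forms, differed at 8h by -0.08, -0.05, -0.09, 0.10 and -0.15, and Ndufa4 by -0.03. Cox7a2l, placed in this class by its symbol alone, had the smallest adjusted p of the 11 genes at 8h. Its difference was -0.16 (adjusted p = 0.0175 from limma).

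The 8 tissue isoforms had a median signal of 5.71 and a highest of 8.35, beside medians of 12.48 over the 96 members and 7.65 over all genes. Their median difference at 0h was -0.32, with 5 of 8 lower. Cox7a1, the heart and skeletal muscle form, had 5.54, 5.77 and 6.76 at the lowest, median and highest of the CIE 0h mice, against 6.22, 6.56 and 7.41 of the Ctrl 0h mice. The groups overlapped, and the difference of -0.71 ± 0.24 was not called (SE; adjusted p = 0.0332 from limma). Cox8b, another muscle form, differed by -0.38 (adjusted p = 0.028 from limma), with CIE mice at 4.71 to 5.26 and Ctrl mice at 5.22 to 5.60. Ndufa4l2, a hypoxia-induced relative of Ndufa4, had 5.72 to 5.96 in CIE 0h mice and 6.11 to 6.45 in Ctrl 0h mice, which did not overlap, with a difference of -0.38 (adjusted p = 0.0349 from limma). At 8h Ndufa4l2 was still at -0.38 and Cox7a1 at -0.52, and at 7d they were at 0.14 and 0.11, again not called. The remaining tissue forms went both ways at 0h, with Cox6a2 at -0.34 and Cox6b2 at -0.29, and with Cox8c at 0.21, Cox4i2 at 0.19 and Cox7b2 at 0.28. Markers of heart and skeletal muscle were higher in CIE 0h mice in 4 of 5 genes, with a median difference of 0.21, and their part in these values was not tested.

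Complex V, the ATP synthase, had 13, 13, 2 and 11 of 17 subunits lower in CIE mice at 0h, 8h, 72h and 7d, with none called and medians of -0.03, -0.05, 0.04 and -0.01. The 8 genes of the catalytic head and the rotor ring were all lower at 8h, with a median of -0.10. Without CIE 8h mouse 15, 7 of the 8 were lower, with Atp5e at 0.07, the median of these 8 was -0.06, and the median of the 17 subunits at 8h was -0.01. Atp5b, the catalytic beta subunit, had 13.43, 13.44, 13.77, 13.65 and 13.66 in CIE 8h mice 15, 23, 40, 51 and 69, against 13.74 at the lowest, 13.76 at the median and 13.80 at the highest in Ctrl 8h mice. CIE mice 15 and 23, both of repeat group 2, were lowest and mouse 40 lay within the control range, and the difference of -0.17 ± 0.06 was not called (SE; adjusted p = 0.0779 from limma). The genes Atp5g1, Atp5g2 and Atp5g3 encode the same mature rotor protein and differed at 8h by -0.24, -0.09 and -0.00, none of them called. Atp5l, a subunit of the membrane part, differed by -0.14 (adjusted p = 0.0719 from limma).

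The assembly factors, proteins that help build the complexes without staying in them, held both members called at 0h. Ndufaf4, an assembly factor of complex I, had 10.36, 10.53 and 10.69 at the lowest, median and highest of the CIE 0h mice, against 10.68, 10.81 and 10.93 of the Ctrl 0h mice. The highest CIE mouse stood just above the lowest Ctrl mouse and all others were apart. Ndufaf4 fell by 0.31 on the log2 scale, ± 0.08 (SE; adjusted p = 0.00465 from limma; two-sided exact permutation p = 0.00433). Without CIE mouse 5 or 17 or Ctrl mouse 2 or 12 the adjusted p from limma lay between 0.0131 and 0.0185, and with the 0h arrays fitted alone it was 0.0131. At 8h, 72h and 7d the difference was -0.14, -0.06 and -0.03.

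Sdhaf1, which helps insert iron-sulfur clusters into complex II, was the only member that rose at any time on its brightest probeset. It had 9.15, 9.34 and 9.37 at the lowest, median and highest of the CIE 0h mice, against 8.88, 8.96 and 9.23 of the Ctrl 0h mice. A single Ctrl mouse, mouse 20, reached into the CIE range. The difference was 0.30 ± 0.06 (SE; adjusted p = 0.00054 from limma; two-sided exact permutation p = 0.00649), it stayed called with each of the 12 mice left out in turn, and with the 0h arrays fitted alone the adjusted p was 0.0161. At 8h it was 0.09, at 72h -0.09 and at 7d -0.15. The 7d difference, with CIE mice at 8.96 to 9.12 and Ctrl mice at 9.08 to 9.26, was not called (adjusted p = 0.163 from limma). The ethanol effect at 7d minus that at 0h was -0.45 ± 0.08 for Sdhaf1 (SE; adjusted p = 0.0049 from limma), the only one of 96 members called in that contrast, where 0.363% of all genes were called. This call was lost without any 1 of 9 mice, namely CIE 0h mouse 5, CIE 7d mouse 27, 45 or 65, Ctrl 0h mouse 48 or 78 and Ctrl 7d mouse 28, 46 or 70, at adjusted p-values of 0.0101 to 0.0131. No member was called for the ethanol effect at 8h minus that at 0h (0 of 96, with 3.45% of all genes called). Among the other 10 assembly factors 9 were lower at 0h, and none was called.

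**Figure D3:**
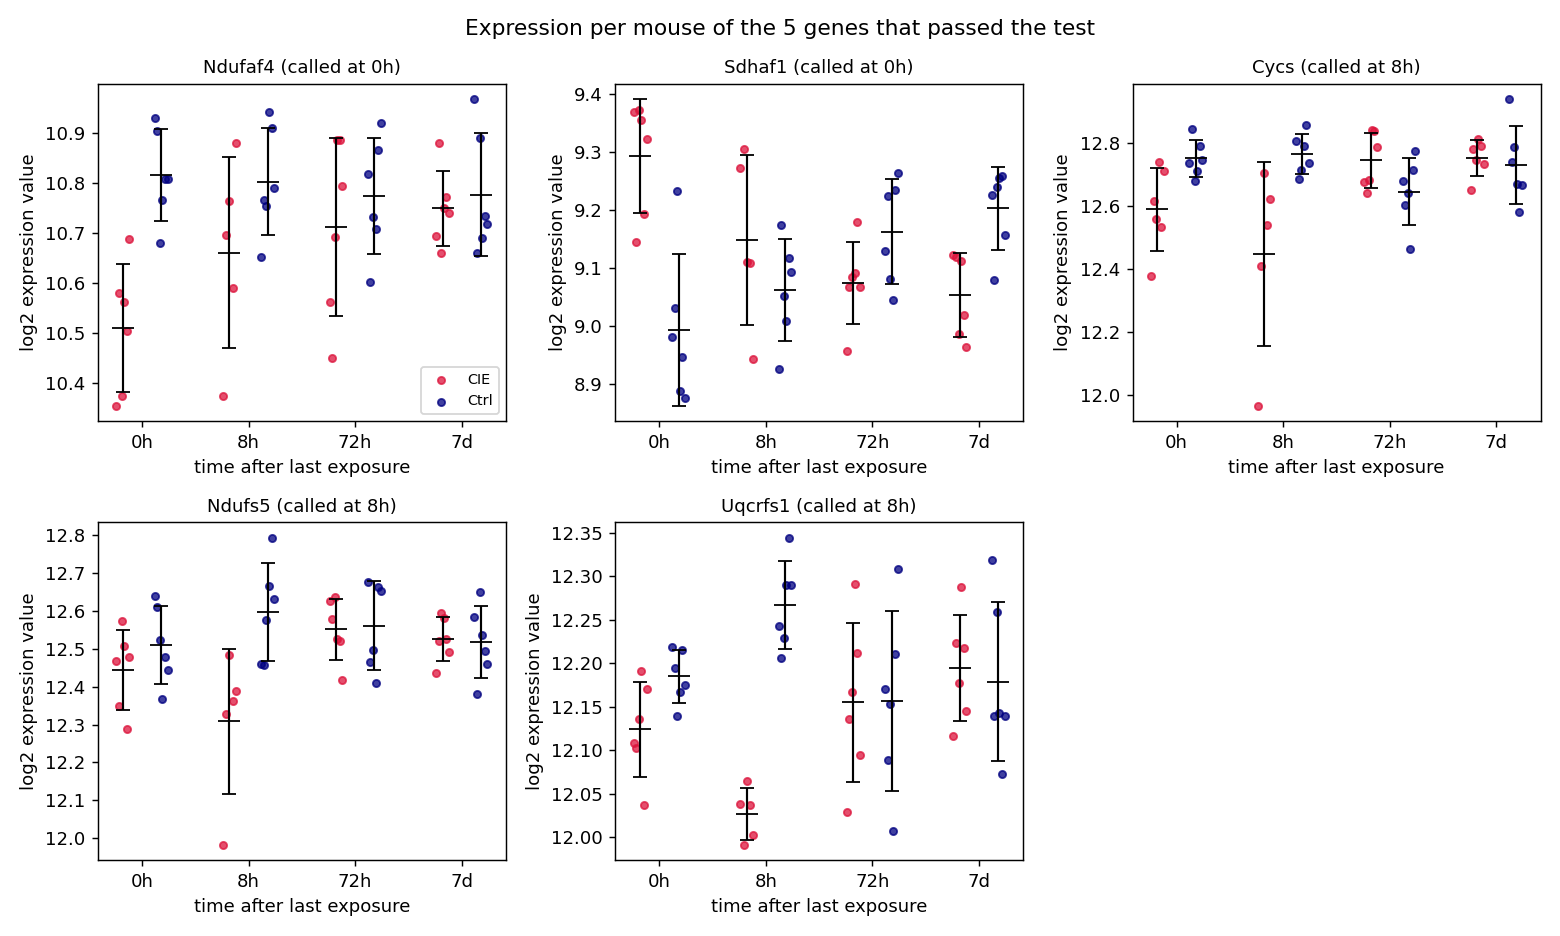
Log2 expression values of the 5 called genes in each mouse (points), CIE in red to the left of Ctrl in blue at each time after the last exposure, with group means and SD in black. Uqcrfs1 at 8h shows no overlap, and the low points of Cycs and Ndufs5 at 8h are CIE mouse 15.

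The promoters of the 5 called genes are shown because nuclear respiratory genes share binding letters for the factors NRF1, GABPA, ERRA and YY1. Each run is the 250 bases before the RefSeq start of the gene (GRCm38.p6), 5′ to 3′ on the strand of the gene, with a match to the NRF1 palindrome of 10 letters, whose sixth base was left free, in capitals. The runs lie at chr4:24897833-24898082, plus strand (Ndufaf4), chr7:30322376-30322625, minus strand (Sdhaf1), chr6:50566570-50566819, minus strand (Cycs), chr4:123718187-123718436, minus strand (Ndufs5) and chr13:30545317-30545566, minus strand (Uqcrfs1).
Ndufaf4: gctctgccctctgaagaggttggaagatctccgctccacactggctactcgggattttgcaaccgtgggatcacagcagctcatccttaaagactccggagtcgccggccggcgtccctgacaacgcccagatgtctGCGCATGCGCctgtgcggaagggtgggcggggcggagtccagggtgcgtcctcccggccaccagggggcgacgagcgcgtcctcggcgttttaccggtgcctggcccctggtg
Sdhaf1: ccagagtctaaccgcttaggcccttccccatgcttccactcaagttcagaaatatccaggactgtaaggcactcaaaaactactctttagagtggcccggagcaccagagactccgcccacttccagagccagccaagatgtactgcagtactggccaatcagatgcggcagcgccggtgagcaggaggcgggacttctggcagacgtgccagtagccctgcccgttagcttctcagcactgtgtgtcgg
Cycs: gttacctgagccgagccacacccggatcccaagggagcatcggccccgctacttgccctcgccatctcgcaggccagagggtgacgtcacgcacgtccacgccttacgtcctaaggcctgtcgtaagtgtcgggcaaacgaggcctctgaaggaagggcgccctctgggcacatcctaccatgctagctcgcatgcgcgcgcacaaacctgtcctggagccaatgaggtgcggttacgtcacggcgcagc
Ndufs5: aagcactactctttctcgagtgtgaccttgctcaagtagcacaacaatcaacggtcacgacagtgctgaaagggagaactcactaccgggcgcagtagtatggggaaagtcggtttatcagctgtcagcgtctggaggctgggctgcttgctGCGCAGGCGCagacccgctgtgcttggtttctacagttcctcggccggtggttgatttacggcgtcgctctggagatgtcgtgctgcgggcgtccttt
Uqcrfs1: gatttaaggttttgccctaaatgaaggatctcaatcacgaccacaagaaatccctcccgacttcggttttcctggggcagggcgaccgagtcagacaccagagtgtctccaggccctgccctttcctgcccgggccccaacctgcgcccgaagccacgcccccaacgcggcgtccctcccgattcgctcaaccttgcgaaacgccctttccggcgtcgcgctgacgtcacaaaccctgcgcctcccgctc

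The NRF1 letters began 113 bases before the start in Ndufaf4 and 98 bases before it in Ndufs5. No exact match lay in the windows of Sdhaf1, Cycs and Uqcrfs1. The Cycs run holds tcgcatgcgc, which differs from the palindrome only in its first letter and was not counted. Binding of NRF1 was not tested. Promoters were at hand for 79 of the 96 members, and both strands were searched from 250 bases before to 50 after the start. The NRF1 letters with the free base were present in 19 of 79 members (24.1%) and in 5.19% of 27025 genes, and the full palindrome seen in Ndufaf4, which is one form of them, in 7.59% of members and 1.07% of genes. The YY1 letters AAGATGGCG were found in 8.86% of members and 1.64% of genes, the ETS letters CCGGAAGT of GABPA in 6.33% and 4.31%, and the ERRA letters TNAAGGTCA in 3.80% and 1.43%.

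A gene's other probesets often gave another answer than its brightest. Of the 96 genes 54 had several probesets, with 94 beyond the brightest, and of these 6 were called at 0h, 5 at 8h, 0 at 72h and 3 at 7d, shares of 6.38%, 5.32%, 0% and 3.19% beside 7.28%, 3.39%, 0.528% and 0.948% of all probesets. The genes were named after their values were seen. At 0h dimmer probesets fell for the rotor gene Atp5g1 (-0.74), Cycs (-0.55), Ndufab1 (-0.50), Ndufs4 (-0.29) and Sdha (-0.21), and rose for Ndufb2 (0.29), with adjusted p-values from limma up to 0.00811. Among these, Sdha was read at a mean signal of 12.39, close to that of its brightest probeset, 12.75, which differed by -0.03. At 8h dimmer probesets rose for Atp5a1 (0.83), Cox6c (0.51) and Uqcrq (0.51) and fell for Ndufs7 (-0.27) and Sdhaf3 (-0.31), and in 4 of these 5 genes the brightest probeset had the opposite sign. At 7d Atp5a1 (-0.72) and Ndufc2 (-0.44) fell and Ndufb2 (0.44) rose on a dimmer probeset. Which transcripts these probesets read was not tested.

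**Figure D4:**
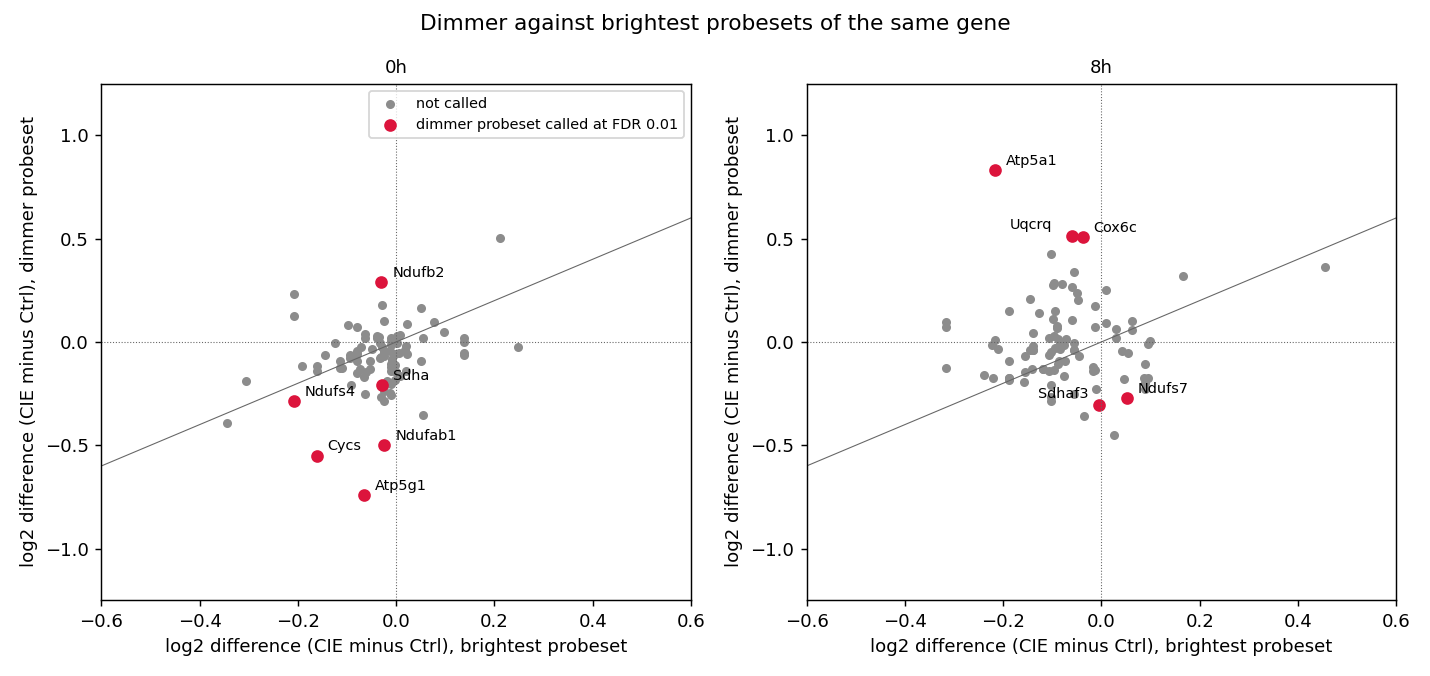
Each point is a dimmer probeset, placed by the log2 difference of CIE minus Ctrl on the brightest probeset of the same gene (horizontal axis) and on itself (vertical axis), at 0h and 8h, with the line of equal values. Called dimmer probesets (red, 6 at 0h and 5 at 8h) lie far from that line in most genes, and Atp5a1, Cox6c and Uqcrq at 8h are on the opposite side of 0.

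Among Ctrl mice no respiratory chain gene passed a test for change over the harvest times. Limma's F test over the 4 Ctrl groups called 0 of 96 members, where 1.51% of all genes were called, with 9 members at an unadjusted p of 0.05 or less and a smallest adjusted p of 0.0587. The 4 Ctrl groups averaged 11.68, 11.68, 11.63 and 11.66 over the 96 genes at 0h, 8h, 72h and 7d, and the CIE groups 11.63, 11.61, 11.67 and 11.66.

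Genes of pathways that feed or build the chain were called in small numbers, to be read beside the 7.41% of all genes called at 0h and 3.53% at 8h. The lists are short, and the called share was above that of all genes for biogenesis regulators at 0h. At 8h it was above for pyruvate entry, glycolysis, biogenesis regulators and defence genes. None of 13 measured genes of the tricarboxylic acid cycle passed at any time, and 11 and 10 of them were lower in CIE mice at 0h and 8h. Pdha1, a subunit of pyruvate dehydrogenase, fell at 8h by 0.20 on the log2 scale, and was the only one of 12 genes of pyruvate entry that passed. Among 14 glycolytic genes 1 was called at 0h and 2 at 8h. Pfkp, the platelet-type phosphofructokinase, fell by 0.26 at 0h and by 0.25 at 8h, and Tpi1, triose phosphate isomerase, fell by 0.20 at 8h. Of 19 regulators of mitochondrial biogenesis 3 were called at 0h and 1 at 8h. Tfb2m, a factor of mitochondrial transcription, rose by 0.22 at 0h and fell by 0.24 at 8h, while the coactivator Pprc1 and the GABP subunit Gabpb1 fell by 0.25 and 0.48 at 0h. Of 60 genes of the mitochondrial ribosome, Mrps22, Mrpl47, Mrpl36 and Mrpl18 fell at 0h by 0.35, 0.28, 0.26 and 0.29, and at 8h Mrpl9 fell by 0.35 and Mrpl33 rose by 0.44. Lyrm7, a complex III assembly factor, fell by 0.34 at 0h as the only one of 29 further assembly factors, and the peroxiredoxin Prdx2 fell by 0.19 at 8h as the only one of 11 defence genes. None of 16 carrier and shuttle genes or 17 import genes passed, and no gene of these lists passed at 72h or 7d.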

How the data were processed

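RNA of medial PFC from 47 single mice was hybridised to arrays. Log2 values for each probeset were deposited by the authors. The study's methods give RMA background correction, quantile normalization and ComBat adjustment for repeat group, whose effect on the 8h values was not tested. 8h was the only time with both of the 2 repeat groups (5 mice of repeat group 2). Tool versions are not stated in the sources used here. Values were used as deposited, with no filter, and 0 value columns were left out.

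By the platform annotation 34945 probesets had 1 gene symbol, 932 several and 9160 none, and only the first were named. A single limma model (limma 3.58.1 in R 4.3.3) with 8 group means was fitted to 45037 probesets, with Benjamini-Hochberg adjustment and calls at a false discovery rate of 0.01 or less. Every adjusted p comes from that fit or a stated alternative of it. Exact permutation p-values are unadjusted and were taken only for members already called on the same values, so they add no separate support. Code was tested on simulated data. The number of arrays limits precision. The labels call the mice biological replicates. Promoters were read with Python 3.11.15 and pandas 2.3.3.

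The members, lists and alternatives were chosen with earlier results of these data known. Named genes were all called members, the 2 members of smallest F test p per complex, Cycs, Cyc1, tissue isoform sets, subunits of complex II, and up to 4 passing genes of each other list. Others are said to be chosen after their values were seen. Marker lists of inhibitory neurons, astrocytes, oligodendrocytes, microglia, endothelium and cortical layers held 1 called gene each in inhibitory neurons (Sst) and microglia (P2ry12), both lower in CIE mice at 8h, and no others.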

Additional observations from a re-analysis of the deposited data

Results flagged for a closer look

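The ethanol effect on Sdhaf1 differed between times by a test of the difference itself. It was -0.15 at 7d and 0.30 at 0h, and the 7d effect minus the 0h effect was -0.45 ± 0.08 (SE; adjusted p = 0.0049 from limma). CIE mice averaged above Ctrl mice at 0h and below them at 7d, with overlap at both times. Both arms entered this difference. The median of the Ctrl mice was 8.96 at 0h and 9.23 at 7d, and that of the CIE mice 9.34 and 9.06. Dixon's gap criterion, run on 48 groups of values, marked 0 of them. The low values of CIE 8h mouse 15 for Cycs and Ndufs5 did not reach it, although the array of this mouse correlated least with the others (0.967).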

How the results depend on the processing

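At a false discovery rate of 0.05, 6 members were called at 0h, 13 at 8h, 1 at 7d, 15 by the F test over 4 times and 1 for the 8h minus 0h effect. Reading genes from their most variable probeset gave counts of 5, 6, 3, 13 and 3 in that order, and with every probeset counted 8, 8, 3, 20 and 3. With array weights they were 4, 14, 1, 14 and 3, with 2 for the 7d minus 0h effect and 10 over the Ctrl groups. Repeat group as a term gave 7 at 8h, 9 by the F test and 1 for the 8h minus 0h effect, and repeat group 1 alone gave 2 at 8h (Uqcrfs1 and Ndufa4l2, with 1 of the 3 reported genes among them), 1 at 7d, 3 by the F test, 1 for the 8h minus 0h effect and 1 over the Ctrl groups. A trend and robust prior gave 1 at 7d and 1 for the 8h minus 0h effect, and arrays centred on their medians gave 1 for that effect. Arrays of a time alone gave 1 at 0h, a lower member that was neither Ndufaf4 nor Sdhaf1, and 0 at 8h. An alternative chosen after seeing the data, without CIE 8h mouse 15, gave 1 at 8h. At a rate of 0.05, 15.4%, 11.2% and 3.23% of all genes were called at 0h, 8h and 7d, and 9.46% for the 8h minus 0h effect. With array weights these shares of all genes were 11.4%, 14.8%, 5.08% and 10.8%. At 8h, repeat group as a term gave 6.62% of all genes, repeat group 1 alone 2.36%, and leaving out mouse 15 1.42%. The counts of members are to be read beside these shares. The cause of the shifts in counts was not tested.

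Leaving out each mouse gave 1 to 2 calls at 0h (1 without CIE mouse 5 or 17 or Ctrl mouse 2 or 12), 1 to 4 at 8h (1 without CIE mouse 15 or 23 or Ctrl mouse 50, 66, 75 or 79), 2 to 6 by the F test (over 1.5 times fewer without CIE 0h mouse 5, CIE 8h mouse 23 or Ctrl 8h mouse 50, 66 or 75), 0 to 1 for the 8h minus 0h effect (1 without Ctrl 0h mouse 2 or Ctrl 8h mouse 42) and 0 to 1 for the 7d minus 0h effect, and 0 at 72h, at 7d and over the Ctrl groups.

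Of 728 medians by complex under other settings 11 moved beyond the spread, and the sign changed in 14 under other settings and in 28 on leaving out a mouse. With the most variable probeset complex II was at -0.0076 at 8h, 0.112 at 72h and 0.0386 at 7d, complex IV at -0.071 at 0h, and complex V at -0.0927 at 0h and -0.107 at 8h. With every probeset complex II was at 0.0028 at 7d and complex III at 0.0085 at 8h. In alternatives chosen after seeing the data, complex II was at 0.0443 at 7d over members with a mean of at least 10, and at -0.23 at 8h in repeat group 2. Leaving out a mouse put complex II at 7d between 0.0123 and 0.0383, the highest without Ctrl mouse 18. No paired analysis was possible because no mouse number occurs in more than 1 group. The small number of arrays limits all counts.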
